A study of Homo sapiens with 12 samples.

Results

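The genes described here are immediate early and activation genes of lymphocytes: CD69, EGR1, EGR2, EGR3, FOS, FOSB, JUN, JUNB, IER2 and NR4A1. They were listed by symbol with earlier results of these data known. Every probe set whose array annotation gives 1 of these symbols alone was taken. This found 16 probe sets for 9 of the 10 listed genes, out of 19775 genes with a probe set of their own. No probe set carries the EGR2 symbol alone, so EGR2 was not analysed here. All samples were OCI-Ly7, a diffuse large B-cell lymphoma cell line whose label reads B-NHL, and the cells were grown in DMEM with fetal bovine serum. Vehicle, ibrutinib at 1 μM, ibrutinib at 10 μM or PLS-123 at 1 μM was given for 24 hours, and each of these 4 groups has 3 samples. Ibrutinib and PLS-123 are both covalent inhibitors of Btk, the kinase that carries the B-cell receptor signal into the cell. RNA of each sample was read on its own Affymetrix U133 Plus 2.0 array, so every value below comes from 1 cell line and 1 time point. Whether the samples of 1 group came from separate cultures is not stated in the labels, and the p values measure the spread between these samples, which may be technical.

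Immediate early genes are switched on within minutes of a signal at the cell surface, with no need for new protein. In B cells the antigen receptor drives them through Btk, phospholipase C, calcium and the Ras and ERK kinases, whose ends are factors such as SRF, the ELK proteins, NFAT and CREB on the promoters. Most of their products are transcription factors: the EGR zinc fingers, the FOS and JUN proteins that pair to form AP-1, and the orphan nuclear receptor NR4A1. CD69 is a C-type lectin receptor that reaches the surface soon after activation and holds lymphocytes in tissue by taking S1PR1 from the membrane. The transcripts are short-lived, so a sample taken at 24 hours shows the level that cells hold late in treatment, not the first wave.

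Promoter sequences of RefSeq (GRCh38.p14, the 250 bases before the start) were held for 8 of the 10 genes, in 11 promoters, with none for CD69 and EGR3. The promoters of the 2 transcription factor genes that rose, EGR1 and JUN, are shown with those of FOS, which did not pass the test, and IER2, which fell under PLS-123. Each runs 5′ to 3′ on the strand of its gene. Capitals mark a CArG box (the site type of SRF), TGANTCA (AP-1), TGANNTCA (the longer AP-1 and ATF form) or GCGNGGGCG (EGR), searched on both strands.
EGR1, chr5:138465229-138465478, + strand: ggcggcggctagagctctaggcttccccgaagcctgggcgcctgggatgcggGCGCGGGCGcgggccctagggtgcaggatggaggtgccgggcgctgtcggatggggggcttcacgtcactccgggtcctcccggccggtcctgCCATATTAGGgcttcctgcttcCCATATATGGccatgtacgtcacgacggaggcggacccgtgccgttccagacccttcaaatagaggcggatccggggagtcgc
JUN, chr1:58784048-58784297, − strand: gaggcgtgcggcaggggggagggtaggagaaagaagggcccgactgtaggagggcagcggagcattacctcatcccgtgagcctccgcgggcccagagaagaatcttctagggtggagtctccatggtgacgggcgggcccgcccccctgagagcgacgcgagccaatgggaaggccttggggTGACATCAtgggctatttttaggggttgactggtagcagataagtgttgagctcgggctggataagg
FOS, chr14:75278578-75278827, + strand: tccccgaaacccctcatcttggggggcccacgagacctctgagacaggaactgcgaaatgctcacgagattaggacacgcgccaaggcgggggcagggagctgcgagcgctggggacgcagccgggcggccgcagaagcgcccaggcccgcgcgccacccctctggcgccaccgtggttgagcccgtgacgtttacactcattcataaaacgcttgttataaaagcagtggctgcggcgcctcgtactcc
IER2, chr19:13150161-13150410, + strand: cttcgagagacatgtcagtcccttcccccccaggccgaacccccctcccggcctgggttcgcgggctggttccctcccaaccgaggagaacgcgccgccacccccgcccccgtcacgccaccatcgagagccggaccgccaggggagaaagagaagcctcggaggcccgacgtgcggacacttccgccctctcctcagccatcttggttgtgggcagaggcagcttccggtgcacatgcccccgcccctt
The EGR1 window holds 2 CArG boxes, at −105 to −96 and −83 to −74 from the start, and 1 GCGNGGGCG match at −198 to −190. JUN holds TGACATCA at −67 to −60, and the FOS and IER2 windows hold none of these 4 motifs. Bases further upstream were not searched, so a site there, in FOS or any other gene, would be missed. Over 35116 promoters of the same length, 1.16% hold a CArG box, 6.57% TGANTCA, 10.1% TGANNTCA and 8.41% GCGNGGGCG. Among the 8 genes with a promoter, a CArG box was found in EGR1 and EGR2, TGANNTCA in JUN, GCGNGGGCG in EGR1 and TGANTCA in none. GGGCGG, the GC box of SP1, which can overlap GCGNGGGCG, was found in EGR2, FOS, FOSB, IER2, JUN and NR4A1 and in 42.6% of all promoters. CCGGAA, the core of ETS and ELK sites, was found in FOSB, IER2 and NR4A1 and in 14.5% of all promoters. EGR2 and NR4A1 have more than 1 promoter and were counted where any of them matched, whereas the percentages are of single promoters. A match is a stretch of letters in this window and no evidence of binding.

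The intensities were normalized by the authors with RMA, deposited on the linear scale and converted to log2 here. Levels below are log2 intensities of the brightest probe set of a gene, and a probe set is called dim where its mean over the 12 arrays lies under 3.87, the median of all probe sets. EGR3, FOS and FOSB were dim in every group. JUN, JUNB, IER2 and NR4A1 lay above this level in every group. CD69 and EGR1 passed it through 10 μM ibrutinib and PLS-123 alone, since their means with vehicle (2.68 and 3.67) and at 1 μM ibrutinib (2.80 and 3.65) were under it, and the sizes of their fold changes rest on those low levels. Arrays of a group correlated at 0.995 to 0.997 over all probe sets. The B-cell label held: all 7 measured B-cell markers of 8 listed were above the dim level. Against vehicle, all 7 passed the test under PLS-123. CD22 (-2.14), BLNK (-0.88), MS4A1 (-0.62), EBF1 (-0.52), PAX5 (-0.38) and CD79A (-0.29) were lower on the log2 scale and CD79B (0.31) was higher. At 10 μM ibrutinib CD22, BLNK, MS4A1 and EBF1 passed, each lower (-1.87, -0.66, -0.54 and -0.45). Of 7 T- and NK-cell markers 5 were dim, NCAM1 and CD3E being the others, and none passed the test under PLS-123 or 10 μM ibrutinib against vehicle. The summed linear intensity of the B-cell markers was 13497 to 13897 with vehicle, 13272 to 13801 at 1 μM ibrutinib, 10592 to 10735 at 10 μM ibrutinib and 9769 to 10492 under PLS-123, and its part in the results was not tested. For the T- and NK-cell markers the sums were 75.4 to 77.8, 70.6 to 72.9, 72.4 to 78.3 and 76.0 to 91.2 in the same order. Of 5 measured myeloid markers 3 were dim, with sums of 52.9 to 55.4, 52.8 to 56.2, 48.9 to 56.4 and 52.8 to 56.0. Of 6 epithelial and stromal markers 3 were dim, with sums of 157.0 to 174.9, 150.4 to 181.4, 132.6 to 181.1 and 175.4 to 212.3. The lowest PLS-123 sum was thus 175.4, beside a highest vehicle sum of 174.9. None of the myeloid, epithelial or stromal markers passed the test under PLS-123 or 10 μM ibrutinib against vehicle. The part of these markers in the results was not tested. The log2 difference between the 3′ and 5′ control probe sets of ACTB, which grows as transcripts are shortened, was 2.64 ± 0.04 (SD, n = 3) with vehicle, 2.67 ± 0.18 at 1 μM ibrutinib, 2.74 ± 0.08 for 10 μM ibrutinib and 2.93 ± 0.20 under PLS-123. Its lowest value was 2.69 at 10 μM ibrutinib and 2.80 under PLS-123, both above the highest with vehicle, 2.68, and results that depend on it are marked below. RNA came from whole samples, so more cells with a transcript and more RNA per cell cannot be told apart.

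On the brightest probe sets, PLS-123 and 10 μM ibrutinib each raised CD69, EGR1 and JUN and lowered NR4A1 against vehicle, and PLS-123 also lowered IER2. CD69 stood far above the others in size, with more than a 6-fold rise under each, whereas the other changes lay between 1.33-fold and 2.004-fold. NR4A1 passed on no other probe set, and the JUN call at 10 μM ibrutinib held under 12 of 22 alternative settings. The FOS genes, JUNB and EGR3 did not pass the test in any comparison, and none of the 9 genes passed it for 1 μM ibrutinib. Tests were made with limma on all 12 arrays, with p values adjusted by the Benjamini-Hochberg method over 54613 probe sets and read at 0.05. With PLS-123 against vehicle, 3 of 9 genes were higher and 2 lower, where 7.54% of all genes were higher and 12.8% lower. With 10 μM ibrutinib against vehicle, 3 of 9 were higher and 1 lower, where the background was 6.71% higher and 5.82% lower. The median log2 difference of the 9 genes was 0.05 under PLS-123 and 0.09 at 10 μM ibrutinib, beside -0.04 and -0.02 for all genes. Both comparisons use the same 3 vehicle arrays. The genes, like the lists further below, were chosen with earlier results of these data known, so the counts are not an independent test.

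**Figure D1:**
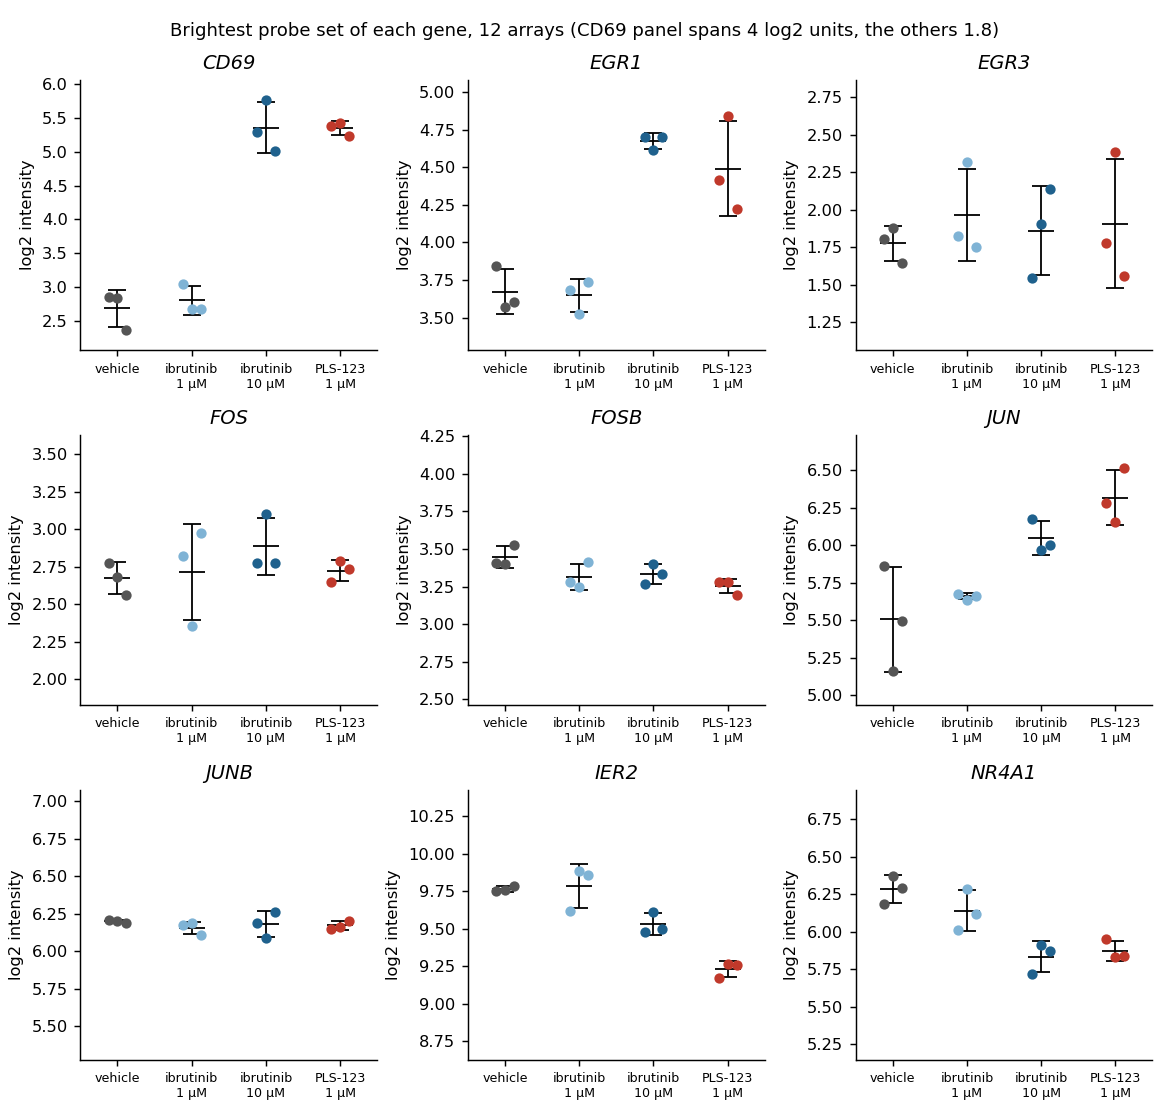
Log2 intensity of the brightest probe set of each of the 9 genes on the 12 arrays, grouped by treatment. Points are arrays, the long bar is the mean of 3 and the whiskers are ± 1 SD; the CD69 panel covers a wider range than the others. CD69 lies at 5.02 to 5.77 at 10 μM ibrutinib and at 5.23 to 5.43 under PLS-123, above every vehicle array.

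CD69 is the surface receptor among these genes, read by 1 probe set (209795_at). Its log2 levels were 2.85, 2.83 and 2.37 with vehicle and 3.05, 2.67 and 2.68 at 1 μM ibrutinib. They were 5.29, 5.77 and 5.02 at 10 μM ibrutinib and 5.39, 5.43 and 5.23 under PLS-123. The arrays of 10 μM ibrutinib and of PLS-123 thus formed a high set and the other 6 arrays a low set, with no overlap between the sets. On the linear scale the low set ran from 5.2 to 8.3 and the high set from 32.4 to 54.4, while the medians of whole arrays were 14.2 to 14.8. CD69 therefore lay under the array median with vehicle and at 1 μM ibrutinib, and above it in the high set. The rise over vehicle was 2.67 ± 0.18 on the log2 scale under PLS-123 (SE, 95% interval 2.28 to 3.05), a 6.35-fold change with limma adjusted p = 2.29e-07. With 10 μM ibrutinib it was 2.67, with an interval of 2.29 to 3.06, a 6.38-fold change and limma adjusted p = 2.6e-07. For 1 μM ibrutinib the log2 difference from vehicle was 0.12, with an interval of -0.27 to 0.50 (limma adjusted p = 0.967). In order of level the groups were vehicle, 1 μM ibrutinib, PLS-123 and 10 μM ibrutinib, and only the step between the second and the third exceeded the spread. CD69 stayed past the threshold under all 22 alternative settings, with log2 rises of 2.51 to 2.75 for PLS-123 and 2.47 to 2.84 for 10 μM ibrutinib. These settings are not all separate support, since CD69 passes the filter on dim probe sets only through its high set. Leaving out an array of a group outside the comparison changes the estimate of the spread but not the difference.

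EGR1 is the zinc finger factor that binds GCGNGGGCG sites, and its own promoter, shown above, holds 1 such match. The brightest of its 3 probe sets (201693_s_at) read 3.84, 3.57 and 3.60 with vehicle and 3.68, 3.53 and 3.73 at 1 μM ibrutinib. It read 4.70, 4.61 and 4.71 at 10 μM ibrutinib and 4.41, 4.84 and 4.22 under PLS-123. Every array of the last 2 groups lay above every array of the first 2, and the PLS-123 arrays were spread most widely. EGR1 rose by 0.82 ± 0.14 (SE) on the log2 scale under PLS-123, 1.77-fold, with limma adjusted p = 0.00084. The rise at 10 μM ibrutinib was 1.00, 2.004-fold, with limma adjusted p = 0.000201. For 1 μM ibrutinib the difference was -0.02, with an interval of -0.32 to 0.27. The other probe sets of EGR1 were both dim: 201694_s_at rose by 0.45 under PLS-123 (limma adjusted p = 0.00592) and differed by 0.27 at 10 μM ibrutinib (limma adjusted p = 0.109), and 227404_s_at differed by 0.25 and 0.18 without passing. The call for PLS-123 was lost with the methods' t-test (adjusted p = 0.102), and that for 10 μM ibrutinib with the median over the 3 probe sets (log2 difference 0.27, adjusted p = 0.0753).

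EGR3, a close relative of EGR1 that takes part in the anergy and feedback response of lymphocytes, was read by 1 dim probe set (206115_at). Its mean log2 levels were 1.78 ± 0.12 (SD, n = 3) with vehicle, 1.96 ± 0.31 at 1 μM ibrutinib, 1.86 ± 0.30 at 10 μM ibrutinib and 1.91 ± 0.43 under PLS-123. All 4 groups overlapped. The difference between PLS-123 and vehicle was 0.13, with a 95% interval of -0.31 to 0.58, and that between 10 μM ibrutinib and vehicle was 0.09.

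The JUN side of AP-1 differed between its members. JUN, the founding member, was brightest on probe set 201464_x_at, whose name marks probes that can also match other transcripts. Its levels were 5.86, 5.16 and 5.49 with vehicle and 5.68, 5.64 and 5.67 at 1 μM ibrutinib. They were 6.18, 5.97 and 6.002 at 10 μM ibrutinib and 6.28, 6.15 and 6.51 under PLS-123. The vehicle arrays were the most scattered, and still every array of 10 μM ibrutinib and of PLS-123 lay above all of them. JUN rose by 0.81 ± 0.15 (SE) under PLS-123, 1.76-fold, with limma adjusted p = 0.00163. The rise at 10 μM ibrutinib was 0.54, 1.46-fold, with limma adjusted p = 0.0304. A second probe set, 201465_s_at, rose by 0.53 and 0.50 in these comparisons (limma adjusted p = 0.0136 and 0.0269), whereas the dim probe sets 213281_at and 201466_s_at differed by 0.10 and 0.20 under PLS-123 and by -0.00 and 0.21 at 10 μM ibrutinib without passing. The PLS-123 call was lost with the methods' t-test (adjusted p = 0.130) and with the median over the probe sets (0.31, adjusted p = 0.0731). With ACTB as a covariate the JUN difference was 0.63 for PLS-123 (limma adjusted p = 0.0780) and 0.48 for 10 μM ibrutinib (limma adjusted p = 0.0708). The call for 10 μM ibrutinib was lost under 10 of 22 settings, among them without vehicle array B (0.37, adjusted p = 0.127), without vehicle array C (adjusted p = 0.0836) and without array A, B or C of its own group (adjusted p = 0.110, 0.0577 and 0.0661).

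JUNB, which also pairs with FOS proteins but often works against JUN in growth control, was among the steadiest of the genes. Its probe set 201473_at read 6.21, 6.20 and 6.19 with vehicle, 6.17, 6.19 and 6.11 at 1 μM ibrutinib, 6.19, 6.09 and 6.26 at 10 μM ibrutinib, and 6.15, 6.16 and 6.20 under PLS-123. The groups overlapped throughout. The 95% interval of its difference from vehicle was -0.19 to 0.13 under PLS-123, so a change of the size seen for JUN lies outside it.

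FOS and FOSB, the partners that JUN proteins need to form the classical AP-1 dimer, were dim in all 4 groups. FOS (209189_at) read 2.78, 2.68 and 2.56 with vehicle, 2.82, 2.36 and 2.97 at 1 μM ibrutinib, 2.78, 3.10 and 2.78 at 10 μM ibrutinib, and 2.65, 2.79 and 2.74 under PLS-123. These groups overlapped, with log2 differences from vehicle of 0.05 for PLS-123 (95% interval -0.25 to 0.35) and 0.21 for 10 μM ibrutinib (limma adjusted p = 0.862 and 0.443). FOSB (202768_at) read 3.41, 3.40 and 3.53 with vehicle, 3.28, 3.24 and 3.41 at 1 μM ibrutinib, 3.27, 3.40 and 3.34 at 10 μM ibrutinib, and 3.28, 3.28 and 3.20 under PLS-123. For FOSB each array of PLS-123 lay below each vehicle array, yet the difference of -0.19 did not pass (limma adjusted p = 0.131). At this brightness the array may not register a change in a weak transcript.

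IER2, a small nuclear protein of the immediate early response, was read by 1 probe set well above the dim level (202081_at). It read 9.75, 9.76 and 9.79 with vehicle and 9.62, 9.88 and 9.86 at 1 μM ibrutinib. With 10 μM ibrutinib the levels were 9.48, 9.61 and 9.50, and under PLS-123 they were 9.17, 9.27 and 9.26. The arrays of PLS-123 were the lowest and did not overlap with any other group, and the arrays of 10 μM ibrutinib lay between them and vehicle, touching neither. IER2 fell by 0.53 ± 0.09 (SE) on the log2 scale under PLS-123, a 1.45-fold lower level with limma adjusted p = 0.000783. For 10 μM ibrutinib the difference from vehicle was -0.23, with a 95% interval of -0.42 to -0.05 and limma adjusted p = 0.122. That value passed with an intensity trend in the variance (adjusted p = 0.0223) and when dim probe sets were left out of the adjustment (adjusted p = 0.0463). With ACTB as a covariate the IER2 difference under PLS-123 was -0.44 and passed (limma adjusted p = 0.0359). By the fold of 1.5 with unadjusted p IER2 was not called under PLS-123, against vehicle or against 1 μM ibrutinib.

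NR4A1, the orphan nuclear receptor also called NUR77 and used as a reporter of antigen receptor signalling, was lower under PLS-123 and at 10 μM ibrutinib. Its brightest probe set (202340_x_at), like 211143_x_at, carries the suffix for probes that can match other transcripts, and 210226_at does not. The brightest read 6.19, 6.38 and 6.29 with vehicle and 6.01, 6.28 and 6.12 at 1 μM ibrutinib. It read 5.72, 5.91 and 5.87 at 10 μM ibrutinib and 5.95, 5.83 and 5.84 under PLS-123. Arrays of the last 2 groups lay below all vehicle arrays and below those of 1 μM ibrutinib. Against vehicle, NR4A1 fell by 0.41 ± 0.09 (SE) under PLS-123 and by 0.45 under 10 μM ibrutinib, with limma adjusted p = 0.00785 and 0.00614. Its other probe sets did not pass: 211143_x_at differed by -0.21 under PLS-123 and -0.32 at 10 μM ibrutinib, and 210226_at by -0.06 and -0.08. With the median over the 3 probe sets the differences were -0.14 and -0.25 and neither passed (adjusted p = 0.394 and 0.148). By the methods' t-test the call at 10 μM ibrutinib was lost (adjusted p = 0.0639). By the fold of 1.5 with unadjusted p NR4A1 was called against vehicle under neither treatment. With ACTB as a covariate the PLS-123 value was -0.31 (limma adjusted p = 0.181) and that of 10 μM ibrutinib -0.42 (limma adjusted p = 0.0152).

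**Figure D2:**
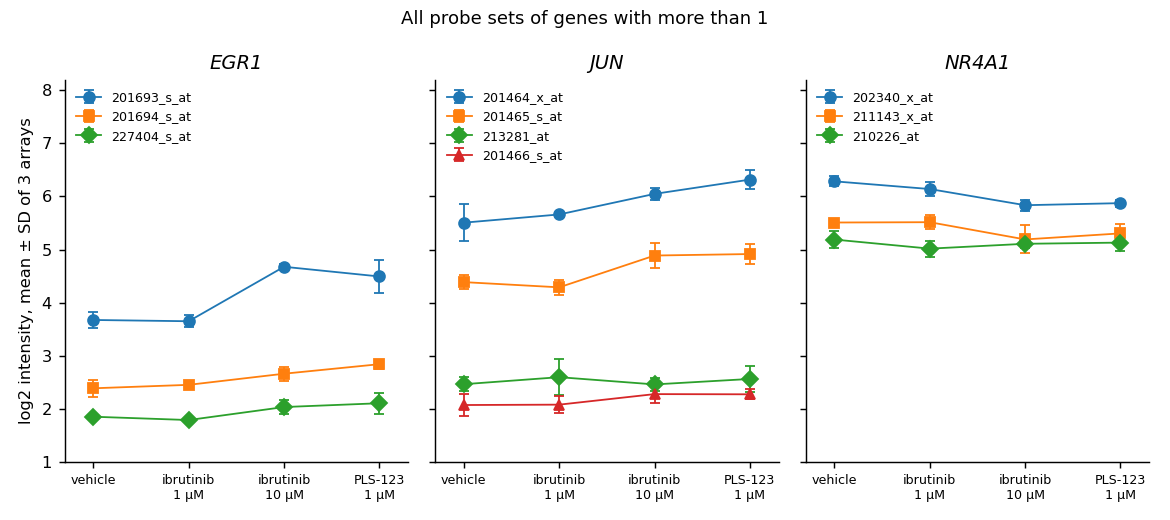
Mean log2 intensity ± SD of 3 arrays for every probe set of EGR1, JUN and NR4A1, the genes with more than 1; levels of different probe sets cannot be compared. The brightest probe sets of EGR1 and JUN are higher at 10 μM ibrutinib and under PLS-123 than with vehicle, while 210226_at of NR4A1 stays within its spread.

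**Figure D3:**
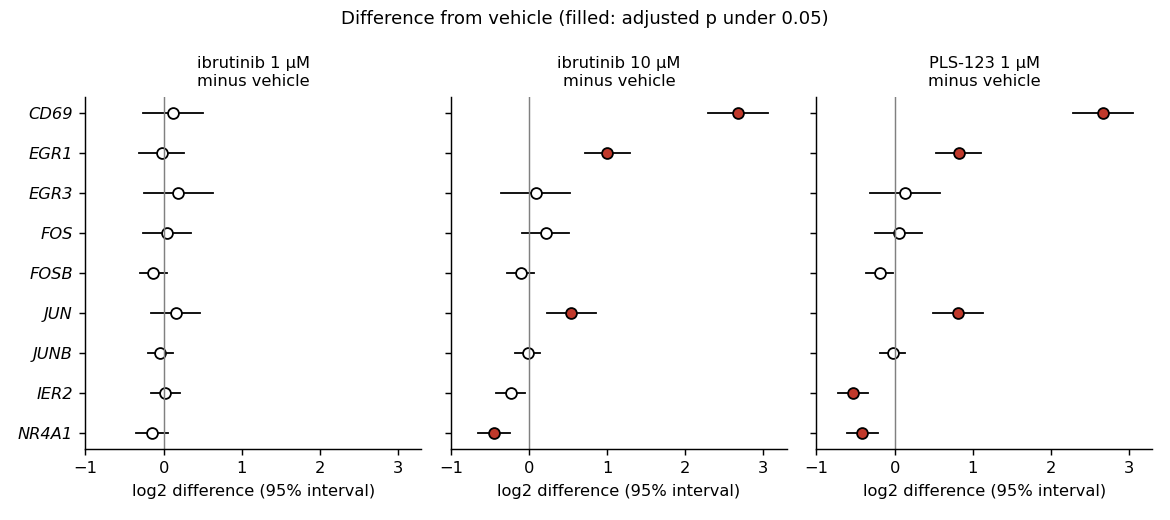
Log2 difference from vehicle with its 95% interval for the brightest probe set of the 9 genes, 1 panel per treatment. Filled points have a limma adjusted p under 0.05: none at 1 μM ibrutinib, 4 at 10 μM ibrutinib and 5 under PLS-123.

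Ibrutinib at 1 μM left all 9 genes without a call. Of the 9 genes 0 were higher and 0 lower against vehicle, where 0% of all genes were higher and 0% lower. The largest difference in size was 0.19 on the log2 scale, in EGR3, and the smallest limma adjusted p among the genes was 0.920. By unadjusted limma p under 0.05 the count of these genes was again 0, the methods' t-test gave 0, and a limma fit of these 2 groups by themselves gave 0. Over the whole array 2943 probe sets had an unadjusted p under 0.05 and the smallest adjusted p was 0.282.

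PLS-123 and ibrutinib were compared directly at the shared dose of 1 μM. CD69, EGR1 and JUN were higher and IER2 lower under PLS-123, which makes 3 of 9 genes higher and 1 lower, where 5.78% of all genes were higher and 10.1% lower. CD69 was 2.55 higher on the log2 scale (95% interval 2.16 to 2.93), 5.85-fold, with limma adjusted p = 4.71e-07. EGR1 was 0.84 higher (limma adjusted p = 0.000858) and JUN 0.66 higher (limma adjusted p = 0.00879). JUN did not pass here with the ACTB covariate (0.50, adjusted p = 0.170) or with the median over its probe sets (0.30, adjusted p = 0.106). IER2 was lower by 0.55 ± 0.09 (SE) on that scale, with a log2 difference of -0.55, an interval of -0.74 to -0.37 and limma adjusted p = 0.000733. For NR4A1 the difference was -0.27, with no overlap between the groups and an interval of -0.47 to -0.06. It did not pass (limma adjusted p = 0.0859), but did so without array A of 1 μM ibrutinib (limma adjusted p = 0.0423) and without dim probe sets (limma adjusted p = 0.0340). The intervals for EGR3 (-0.50 to 0.39), FOS (-0.30 to 0.31), FOSB (-0.23 to 0.11) and JUNB (-0.15 to 0.18) all held 0. By the methods' t-test CD69 alone passed, and the adjusted p was 0.130 for EGR1, 0.0693 for JUN and 0.0714 for IER2.

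The 2 doses of ibrutinib differed in CD69 and EGR1. Of the 9 genes 2 were higher at 10 μM and 0 were lower, where 5.27% of all genes were higher and 4.46% lower. CD69 was higher by 2.56 on the log2 scale (limma adjusted p = 4.98e-07) and EGR1 by 1.03 (limma adjusted p = 0.000199), the latter with 0.21 and adjusted p = 0.220 by the median over its probe sets. JUN, IER2 and NR4A1 had log2 differences of 0.39, -0.26 and -0.30 on their brightest probe sets, and none of these passed (limma adjusted p = 0.156, 0.106 and 0.0692). JUN probe set 201465_s_at did pass, at 0.60 (limma adjusted p = 0.0110), and the brightest passed in a limma fit of these 2 groups by themselves (adjusted p = 0.0400). Without array A of 1 μM ibrutinib the IER2 and NR4A1 differences were -0.34 and -0.37 and both passed (adjusted p = 0.0215 and 0.0409). Both also passed without dim probe sets (limma adjusted p = 0.0368 and 0.0257). IER2 passed with an intensity trend too (limma adjusted p = 0.0146), and NR4A1 with quantile normalization (limma adjusted p = 0.0322).

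PLS-123 at 1 μM and ibrutinib at 10 μM differ in dose, so their values are set side by side. CD69 stood at 5.35 ± 0.10 (SD, n = 3) under PLS-123 and 5.36 ± 0.38 at 10 μM ibrutinib. EGR1 stood at 4.49 ± 0.32 and 4.67 ± 0.05, JUN at 6.32 ± 0.18 and 6.05 ± 0.11, and NR4A1 at 5.87 ± 0.07 and 5.84 ± 0.10. IER2 stood at 9.23 ± 0.05 and 9.53 ± 0.07. In the limma fit 0 of 9 genes were higher and 0 lower, where 0.0708% of all genes were higher and 0.142% lower, and 1 gene, IER2, had an unadjusted p under 0.05 (adjusted p = 0.148). Neither the methods' t-test nor a limma fit of these 2 groups by themselves called any of them, and limma with an intensity trend called IER2 (adjusted p = 0.0243).

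The split of all genes into higher and lower calls depends on how arrays are scaled. With a further quantile normalization the share of called genes that were lower moved from 63.0% to 51.5% for PLS-123 against vehicle, from 63.6% to 51.5% for PLS-123 against 1 μM ibrutinib, and from 66.7% to 46.3% for PLS-123 against 10 μM ibrutinib. With centring on the normalization control probe sets these shares were 72.0%, 60.8% and 69.0%. The shares for PLS-123 against 10 μM ibrutinib rest on few calls, 14 genes higher and 28 lower before further scaling. For 10 μM ibrutinib against vehicle the share was 46.4%, with 48.5% after quantile normalization and 50.9% after centring. For 10 μM against 1 μM ibrutinib it was 45.8%, 46.5% and 36.3% in that order. No value of the 9 genes that had passed the test changed direction under either scaling.

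Other transcription factors of the immediate early class were read from a list of 21, of which 20 were measured and 5 dim. With PLS-123 7 were higher and 1 lower than with vehicle, and at 10 μM ibrutinib 8 were higher and 1 lower. Over all genes the shares were 7.54% higher and 12.8% lower under PLS-123, and 6.71% and 5.82% at 10 μM ibrutinib. The median log2 difference of the list was 0.06 and 0.01, beside -0.04 and -0.02 for all genes. ID1, an inhibitor of basic helix-loop-helix factors, rose by 2.78 ± 0.17 (SE) under PLS-123 and by 3.35 at 10 μM ibrutinib. Its relative ID2 rose by 1.49 and 1.45, and HES1, the Notch-responsive repressor, by 1.42 and 1.08. IRF4, the factor of activated B cells and plasma cells, fell by 1.15 ± 0.10 under PLS-123 and by 0.86 at 10 μM ibrutinib. JUND, the remaining JUN gene, named after its values were seen, rose by 0.50 and 0.57 (limma adjusted p = 0.000441 and 0.000189). These relatives of FOS, EGR1 and NR4A1 did not pass with either treatment: FOSL1 differed by 0.00 and -0.14, FOSL2 by -0.10 and 0.02, EGR4 by -0.16 in both, NR4A2 by -0.15 and 0.16, and NR4A3 by -0.03 and -0.16. NR4A2 and NR4A3 were dim, and FOSL1 (mean 3.98) and EGR4 (3.93) lay little above the dim level of 3.87. At such brightness the array may not register a change.

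Immediate early genes that are not transcription factors moved in both directions. Of 33 listed, 29 were measured, with 6 dim, and 6 were higher and 9 lower under PLS-123, against 7 higher and 5 lower at 10 μM ibrutinib. All genes gave 7.54% higher and 12.8% lower, and 6.71% and 5.82%. Their median log2 difference was -0.16 under PLS-123 and 0.04 at 10 μM ibrutinib, beside -0.04 and -0.02 for all genes. IER3 and IER5, which share the IER name with IER2 and are given after their values were seen, rose by 0.37 each under PLS-123 (limma adjusted p = 0.0283 and 0.0143) and by 0.95 and 0.48 at 10 μM ibrutinib (limma adjusted p = 3.38e-05 and 0.00333). SGK1, a kinase of the AKT family, fell by 2.52 ± 0.12 (SE) under PLS-123 and by 1.46 at 10 μM ibrutinib, and is among the genes that the study chose to display from these samples, so that it is not independent evidence. PIM1, a survival kinase, rose by 1.30 and 1.38, and ZFP36L2, which brings AU-rich mRNAs to decay, by 1.19 and 1.32. TNFAIP3, the NF-κB inhibitor A20, fell by 0.63 under PLS-123, and its difference at 10 μM ibrutinib was -0.16 (limma adjusted p = 0.317). With the ACTB covariate the PLS-123 counts of this list were 4 higher and 6 lower.

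Regulators that act upstream on immediate early promoters were all above the dim level. Of 27 listed, 22 were measured, with 3 higher and 8 lower under PLS-123 and 2 higher and 4 lower at 10 μM ibrutinib, and median log2 differences of -0.14 and -0.09, beside -0.04 and -0.02 for all genes. The shares over all genes were 7.54% higher and 12.8% lower for PLS-123, and 6.71% and 5.82% for 10 μM ibrutinib. ELK3, a ternary complex factor that can repress SRF targets, rose by 2.32 ± 0.21 (SE) under PLS-123 and by 1.79 at 10 μM ibrutinib. ELK4, a related partner of SRF, fell by 0.77 and 0.50. CRTC3, a CREB coactivator, rose by 0.78 and 1.14, and NFATC1, the calcium-responsive factor, fell by 0.95 and 0.69. NFATC1 too was displayed by the study from these samples. With the ACTB covariate the PLS-123 counts were 2 higher and 5 lower, and with quantile normalization 3 higher and 5 lower.

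Proteins that pair with, restrain or degrade the products of the 10 genes formed most of another list. It also held S1PR1, the G protein subunits GNG2 and GNB1, and NR4A2 and NR4A3, which are in the transcription factor list too. Of 22 listed, 19 were measured, with 5 dim, and 2 were higher and 2 lower under PLS-123, against 3 higher and 0 lower at 10 μM ibrutinib. The background was 7.54% higher and 12.8% lower over all genes under PLS-123 and 6.71% and 5.82% at 10 μM ibrutinib, and their medians were -0.03 and -0.00, beside -0.04 and -0.02. BACH1, a repressor that pairs with small MAF proteins, rose by 0.81 ± 0.12 (SE) and 0.82, while MAFG, 1 of those partners, fell by 0.47 under PLS-123 and differed by -0.26 at 10 μM ibrutinib (limma adjusted p = 0.101). FBXW7, the ubiquitin ligase subunit that marks JUN for decay, fell by 0.35 under PLS-123, with -0.16 for 10 μM ibrutinib (limma adjusted p = 0.361). GNG2, a G protein subunit, rose by 0.32 under PLS-123, with -0.23 for 10 μM ibrutinib (limma adjusted p = 0.147). S1PR1, the receptor that CD69 takes from the surface, was dim and differed by -0.03 and -0.00, and NAB2, a corepressor of EGR1, differed by -0.06 and -0.15. NAB1, the other such corepressor, differed by 0.16 under PLS-123 (limma adjusted p = 0.330) and rose by 0.37 at 10 μM ibrutinib (limma adjusted p = 0.0297). With the ACTB covariate the counts for PLS-123 were 1 higher and 0 lower, and with centring on control probe sets 1 higher and 2 lower.

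Surface proteins of activated B cells, the class to which CD69 belongs, moved in both directions. Of 27 listed, 26 were measured, with 7 dim, and 6 were higher and 5 lower under PLS-123 and again 6 and 5 at 10 μM ibrutinib. Of all genes 7.54% were higher and 12.8% lower in the former and 6.71% and 5.82% in the latter, and the list medians were 0.05 and -0.01, beside -0.04 and -0.02. FAS, the death receptor, rose by 1.22 ± 0.08 (SE) under PLS-123 and by 1.23 at 10 μM ibrutinib, and IL2RA, the high-affinity subunit of the interleukin 2 receptor, by 1.04 and 1.31. SLAMF1, a self-binding receptor of lymphocytes, fell by 1.77 and 1.76, and CD48, the ligand of CD244, fell by 1.55 and 1.23. CD69 thus rose beside FAS and IL2RA while SLAMF1 and CD48 fell. In all 5 lists 0 genes passed at 1 μM ibrutinib.

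**Figure D4:**
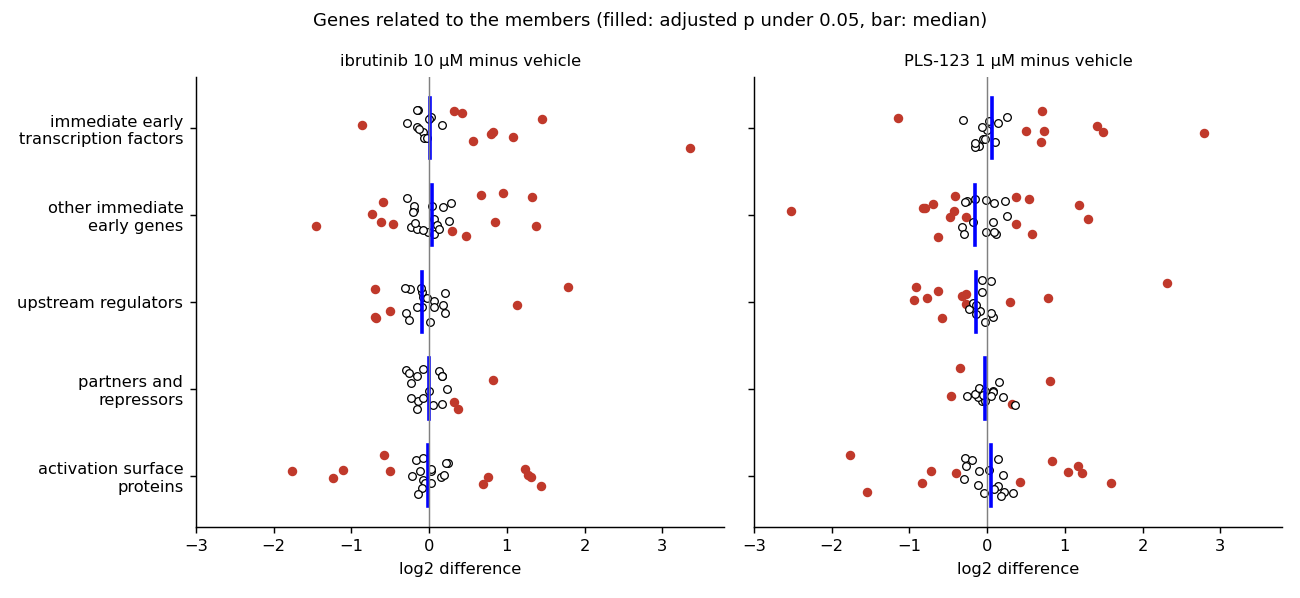
Log2 differences from vehicle of the measured genes in the 5 lists, 1 point per gene, at 10 μM ibrutinib on the left and PLS-123 on the right. Filled points have a limma adjusted p under 0.05 and the vertical bar is the list median; the medians lie between -0.16 and 0.06 while single genes reach from -2.52 to 3.35.

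CD69 had the widest span of group means among the 9 genes, and the genes whose levels followed it most closely were sought among 413 that were not dim and spanned at least 1 log2 unit. The 5 with the highest Pearson correlation over the 12 arrays were VOPP1 (0.990), RASSF5 (0.989), MAML3 (0.989), AOC3 (0.988) and IRF1 (0.988). The 12 arrays share the division into a low and a high set, so the correlations describe that division and are given without a p. RASSF5, a Ras-binding regulator of lymphocyte adhesion, stood at 8.12 ± 0.06 (SD, n = 3) with vehicle, 8.28 ± 0.01 at 1 μM ibrutinib, 9.68 ± 0.03 at 10 μM ibrutinib and 9.61 ± 0.07 under PLS-123. IRF1, the interferon-responsive transcription factor, stood at 6.57 ± 0.03, 6.67 ± 0.12, 7.68 ± 0.10 and 7.66 ± 0.07 in the same order. In both genes the arrays of 10 μM ibrutinib and PLS-123 lay above all others, as they did for CD69. Since both were chosen for their correlation with CD69, this split comes with the choice and is no separate result.

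**Figure D5:**
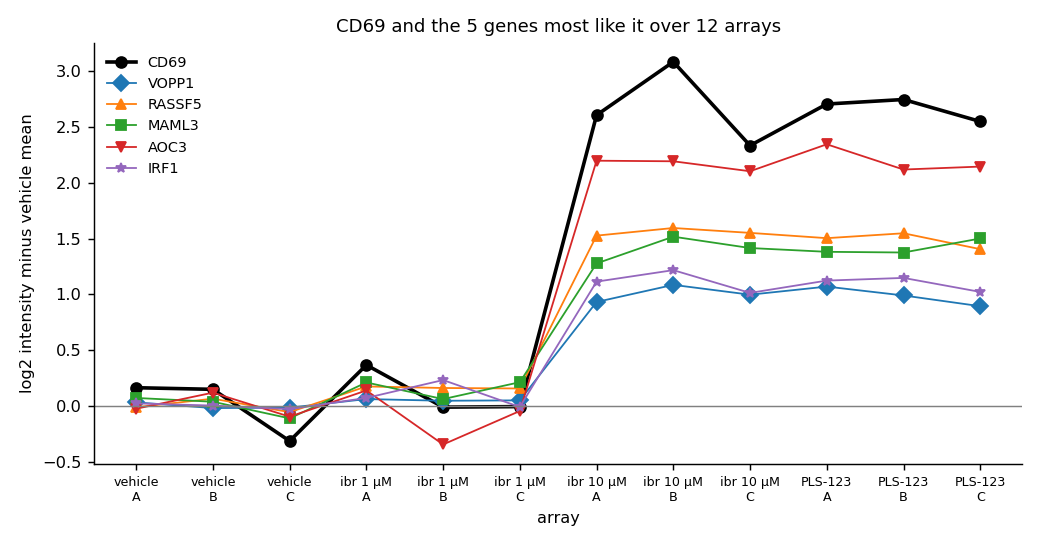
Log2 intensity minus the vehicle mean for CD69 and the 5 genes most like it, array by array; lines only join the points, since arrays of a group have no order. All 6 genes stay near 0 on the vehicle and 1 μM ibrutinib arrays and are higher on every array of 10 μM ibrutinib and PLS-123.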

How the data were processed

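The 12 arrays comprised 3 each of vehicle, 1 μM ibrutinib, 10 μM ibrutinib and 1 μM PLS-123, grouped by the sample labels. The starting values were intensities that the authors deposited on the linear scale, normalized with RMA according to the submitters' processing notes (version not given in the sources used here). They ran from 2.09 to 15751. RMA normalizes probes before it summarizes them by probe set, and it can lessen the fold changes of dim probe sets. The deposited array medians ran from 14.2 to 14.8. The plan took the values to be log2; because they were linear, log2 was taken and nothing was added.

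Of 54675 probe sets, 62 controls were set aside. The annotation gives 41091 a single symbol, 1801 several and 11721 none, and a gene is represented by its brightest single-symbol probe set. limma 3.58.1 (R 4.3.3) was fitted with 1 mean per group, 8 residual degrees of freedom and eBayes. Its p values are two-sided and Benjamini-Hochberg adjusted across the 54613 probe sets tested. The fitting code was tested on simulated data. No low-intensity filter was applied. The number of arrays limits the precision.

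The 10 genes and the 5 lists were chosen with earlier results of these data known. Named were all listed genes with all their probe sets, from each list up to 4 genes called with PLS-123 against vehicle by smallest adjusted p, relatives or partners named for their role, and the 5 genes most correlated with the gene of widest span.

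Alternatives were the methods' t-test (Student's, per probe set), limma on the 2 groups alone, quantile normalization, an intensity trend, centring on 100 normalization control probe sets, a block for the sample letter, the ACTB 3′ to 5′ difference as a covariate, leaving out dim probe sets, a fold of 1.5 with unadjusted p, the median over probe sets, and leaving out each array in turn. Raw scans were not used here.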

Additional observations from a re-analysis of the deposited data

How the results depend on the processing

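The log2 differences of the 9 genes in 6 comparisons were recomputed under 22 alternatives, which gave 1170 values. Of these 1129 kept their side of the threshold, 29 lost the call, 12 gained one and 0 reversed a called value. Among the 1129, 50 values that were not called changed sign. Where dim probe sets were left out, EGR3, FOS and FOSB had no value. For PLS-123 against vehicle the count of called genes was 5, and 3 with the methods' t-test, with the ACTB covariate, with the fold of 1.5 and with the median over probe sets. For 10 μM ibrutinib against vehicle it was 4, and 2 with the methods' t-test, 2 with the fold of 1.5 and 1 with the median over probe sets. PLS-123 against 1 μM ibrutinib gave 4, and 1 with the methods' t-test. PLS-123 against 10 μM ibrutinib gave 0, and 1 with an intensity trend. For 10 μM against 1 μM ibrutinib the count was 2, and 4 without dim probe sets and 1 with the median over probe sets. The cause of these shifts was not tested. Leaving out 1 array at a time gave 5 to 5, 3 to 4, 0 to 0, 4 to 5, 0 to 0 and 2 to 4 called genes, in the order PLS-123, 10 μM and 1 μM ibrutinib against vehicle, PLS-123 against 1 μM and 10 μM ibrutinib, and 10 μM against 1 μM ibrutinib. The 4 of the last came without array A of 1 μM ibrutinib.

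The labels describe no pairing by the letters A, B and C. The residuals of 18 same-letter pairs correlated between -0.209 and 0.152. Pairs of unlike letters were not computed, so these values cannot show whether arrays of a letter shared a culture or batch. With the sample letter as a replicate block the counts were 5, 4, 0, 4, 0 and 2 in the same order as above. Signal over background limits EGR3, FOS and FOSB, which were dim in all groups, and CD69 and EGR1 with vehicle and with 1 μM ibrutinib.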
